A study of Mus musculus with 4 samples.

Results

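The interleukin 6 and interleukin 12 family cytokines examined here were the 8 genes Il6, Il12a, Il12b, Il23a, Il27, Ebi3, Lif and Osm, out of 55536 annotated genes, taken by symbol. They were measured by polyA-plus RNA-seq in primary macrophages grown from bone marrow of C57BL/6J mice, in 1 group of 4 replicates. According to the sample descriptions, cells received 100 ng/ml of lipid A for 12 h, were kept for 12 h after its removal and were collected at 0 min of a second stimulation. Other label fields call the pretreatment lipoprotein A, and sex and age are given as not collected. All 4 biosamples carry 1 donor identifier, so any p-value here reflects only how far these libraries differ among themselves, which may be technical. The series holds no untreated cells, and levels cannot be read as responses to lipid A.

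Cytokines of these families are small helical proteins that signal through shared receptor chains coupled to JAK kinases and STAT transcription factors. Il6, Lif and Osm encode ligands of receptor complexes built on gp130, the product of Il6st. The interleukin 12 members work as heterodimers of a helical alpha chain and a receptor-like beta chain: Il12b pairs with Il12a in interleukin 12 and with Il23a in interleukin 23, and Ebi3 pairs with the Il27 product in interleukin 27 and with Il12a in interleukin 35. In macrophages these genes are known as products of Toll-like receptor stimulation, with NF-kB among their activators.

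Gene counts totalled 25594340, 27384162, 48875472 and 57126810 in replicates 1 to 4, so a gene with 0 counts may still have had up to 3, which is 0.117, 0.110, 0.0614 and 0.0525 CPM (counts scaled to library size). Replicates 1 and 2 each came from 6 read files and replicates 3 and 4 from 4, per the deposited notes. Mitochondrial genes held 0.778%, 1.16%, 3.34% and 3.00% of the counts. All 8 macrophage markers looked at (among them Adgre1, Csf1r and Lyz2) had a mean of at least 1 TPM (a level scaled for transcript length and library size), with a summed level of 14848.8 to 17539.4 TPM. Summed levels were 2.28 to 5.16 TPM for 7 dendritic cell markers, 0.00 to 0.63 for 5 T and NK cell markers, 0.05 to 0.18 for 4 B cell markers, 0.39 to 0.82 for 4 mast cell and basophil markers and 0.08 to 0.80 for 5 fibroblast markers. The 6 neutrophil markers summed to 83.9, 13.0, 68.8 and 6.24 TPM, nearly all from S100a8 and S100a9, and Ly6g was at 0 in all 4 libraries.

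Ebi3 was by far the most abundant of the 8 transcripts, and its level stayed within 1.22-fold over the libraries (1.63-fold in the second quantification described below). Il27, Il12b, Il6 and Osm stood at a mean of 4.68 to 11.5 TPM. Il12a, Il23a and Lif stood at 0.0725 to 0.210 TPM, which rests on 0 to 14 counts per library; without replicate 2 their means were 0.137, 0.0433 and 0.0300 TPM. Ebi3 held 91.0%, 77.2%, 94.2% and 92.5% of the summed TPM of the 8 genes in replicates 1 to 4. Of the 8 genes, 4 (Ebi3, Il27, Il12b and Osm) reached 1 TPM in every library, beside 18.9% of all genes. In bulk RNA, fewer cells expressing a gene and less RNA per cell cannot be told apart.

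**Figure D1:**
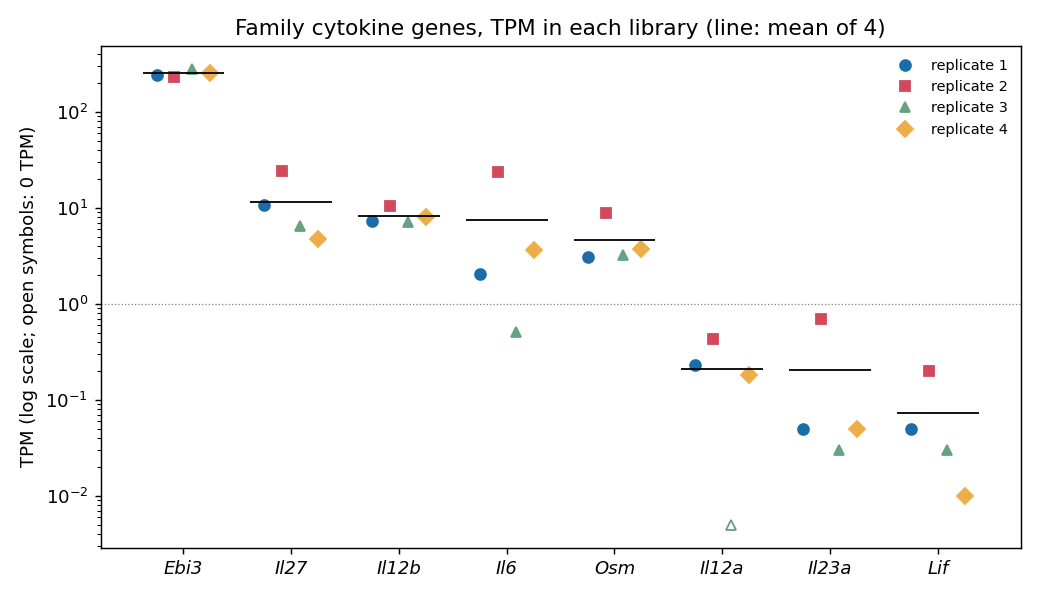
TPM of each of the 8 cytokine genes (x axis) in replicates 1 to 4 (symbols), on a log axis, with the mean of the 4 libraries as a line, a dotted line at 1 TPM and open symbols for 0 TPM. Ebi3 lies between 231 and 281 TPM, and replicate 2 (square) is the highest symbol for the other 7 genes.

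RefSeq windows upstream of the transcription start were found for 5 of the 8 genes, and 3 of them are shown because they belong to the most abundant member (Ebi3), the gene that varied most among those tested (Il6) and the shared beta chain (Il12b). Each line gives the last 150 bases before the RefSeq start in GRCm38.p6, on the plus strand, with letters in capitals where a motif matched.
Il6, chr5:30012964-30013113: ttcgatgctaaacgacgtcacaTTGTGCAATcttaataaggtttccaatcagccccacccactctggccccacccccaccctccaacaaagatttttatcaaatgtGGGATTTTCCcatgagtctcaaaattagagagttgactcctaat
Ebi3, chr17:55952473-55952622: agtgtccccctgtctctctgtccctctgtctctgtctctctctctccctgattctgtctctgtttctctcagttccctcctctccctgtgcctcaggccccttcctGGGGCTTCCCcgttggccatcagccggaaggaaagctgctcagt
Il12b, chr11:44399913-44400062: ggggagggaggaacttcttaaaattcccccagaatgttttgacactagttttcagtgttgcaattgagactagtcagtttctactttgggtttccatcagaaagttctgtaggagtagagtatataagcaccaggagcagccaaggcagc
The capitals nearest the start mark the NF-kB motif, GGGATTTTCC in Il6 and GGGGCTTCCC in Ebi3, which in both genes covers bases 44 to 35 before the start. The other capitals in Il6, TTGTGCAAT at bases 128 to 120, mark the C/EBP motif (TTNNGNAAT).

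All motifs were searched on both strands of the 250 bases before each start. The AP-1 motif was searched as TGANTCA. It matched Il6 at bases 249 to 243 before the start, with the letters TGAGTCA. In Lif it matched at bases 228 to 222 before the RefSeq start at 4257568, with the letters TGACTCA. In replicates 2 to 4 all Lif TPM, from 13, 4 and 1 counts, was placed on Lif-201, which starts downstream at 4267095. The letters of the NF-kB, AP-1, C/EBP, IRF (GAAANNGAA) and TATAAA motifs were not in the window of Il12b or in the windows of both Il12a starts. Of 32851 RefSeq promoter windows of this length, 3.90% held the NF-kB motif, 6.75% AP-1, 10.2% C/EBP, 7.13% IRF and 12.4% TATAAA. A match describes letters in a window and shows no binding. Each motif was searched as a single pattern, so a window without a match may still hold a variant form of it. The position of the NF-kB match in Ebi3 and Il6 is the same only relative to the RefSeq starts. The RefSeq start of Ebi3 is 55952623, upstream of its annotated gene start at 55952640. These 2 genes differed in how far their libraries spread. The highest TPM was 1.22 times the lowest for Ebi3 and 46.2 times for Il6 (1.63 and 34.4 times in the second quantification described below).

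Ebi3, the beta chain of interleukin 27 and interleukin 35, lies on chromosome 17 (55952640 to 55957022, plus strand, mm10) and has 1 annotated transcript of 5 exons. It measured 239, 231, 281 and 251 TPM in replicates 1 to 4, a mean of 251 ± 21.9 TPM (SD, n = 4) and rank 567 of all genes by mean TPM. In counts this was 3669, 3842, 8698 and 9031, with exact Poisson 95% intervals from 3551.2 to 3789.7 in replicate 1 and from 8845.7 to 9219.2 in replicate 4. These intervals, like the limits on a count of 0, cover counting error only. The second quantification of the same libraries, a transcript table in the column layout of kallisto, gave 172, 169, 275 and 246 TPM. In it replicates 1 and 2 lay below replicates 3 and 4 by a wider margin, and the SD of Ebi3 was 53.5 TPM. Over all genes, its total counts were 1.31, 1.32, 1.07 and 1.06 times those of the first table in replicates 1 to 4. The part of this library-wide difference in the wider margin was not tested.

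The antisense gene Gm16712 overlaps Ebi3 by 2252 bases on the opposite strand. It holds 214 of the 1124 stretches of 31 bases (19.0%) in the Ebi3 transcript. Gm16712 itself was listed at 1.21, 3.25, 3.39 and 1.96 TPM, far below Ebi3 in each library. No source used here states whether the counting used strand, so the gene of origin of reads in the shared stretches is uncertain.

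Il27 encodes the alpha chain, called p28, that joins Ebi3 in interleukin 27. It lies on chromosome 7 (126589010 to 126594941, minus strand) with 1 annotated transcript. Il27 measured 10.8, 24.2, 6.42 and 4.77 TPM (11.5 ± 8.80, SD, n = 4), from 141, 342, 169 and 146 counts. Replicate 2 was the highest, and both replicates 3 and 4 were below both replicates 1 and 2. Without replicate 2 the mean was 7.32 TPM. The second quantification gave 10.7, 26.9, 10.1 and 8.01 TPM, again highest in replicate 2. The last 103 bases of the Il27 gene overlap the end of Apobr, a lipoprotein receptor gene on the plus strand, which had 54.8, 65.2, 109 and 127 TPM. They share 73 of the 991 stretches of 31 bases in Il27 (7.37%), and Apobr was higher in replicates 3 and 4, where Il27 was lower. The part of shared reads in the Il27 values was not tested.

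The chains of interleukin 27 were thus at unequal RNA levels in every library. Ebi3 exceeded Il27 by a TPM ratio of 22.2, 9.56, 43.8 and 52.6, a mean log2 ratio of 4.56 ± 1.02 (SD, n = 4, with 1 TPM added to both). The ratio was positive in 4 of 4 libraries (exact sign-flip permutation p = 0.13, two-sided, the smallest that 4 libraries allow, and 0.167 after Benjamini-Hochberg adjustment over the 8 pairs compared). The second quantification gave 3.98. The ratio was lowest in replicate 2, where Il27 peaked.

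Il12b encodes p40, the beta chain that interleukin 12 and interleukin 23 share, and lies on chromosome 11 (44400063 to 44414033, plus strand). It measured 7.31, 10.4, 7.08 and 8.02 TPM (8.20 ± 1.51, SD, n = 4), from 200, 309, 392 and 518 counts. The 4 libraries stayed within 1.47-fold, and 1 of its 2 annotated transcripts, Il12b-201, held all of its TPM in both quantifications. Il12a, the p35 alpha chain of interleukin 12 on chromosome 3 (68690644 to 68698547, plus strand), was near the detection limit. It measured 0.23, 0.43, 0.00 and 0.18 TPM, from 4, 8, 0 and 4 counts, and the 0 counts of replicate 3 allow up to 0.0614 CPM. These few counts of Il12a fell on Il12a-202, which starts at 68691424, and on the retained-intron transcript Il12a-203.

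Il23a, the p19 alpha chain of interleukin 23, lies on chromosome 10 (128296139 to 128298752, minus strand). It had 1, 14, 1 and 2 counts, or 0.05, 0.69, 0.03 and 0.05 TPM (mean 0.205 TPM). Only replicate 2 stood above the limit of 3 counts. The p40 chain was therefore higher than either of its alpha chains in 4 of 4 libraries. The mean log2 ratio was 2.92 ± 0.12 for Il12b over Il12a and 2.95 ± 0.15 for Il12b over Il23a (SD, n = 4; exact sign-flip permutation p = 0.13 each, adjusted 0.167). Because the alpha chains are near 0, the added 1 TPM sets the size and the spread of these ratios: with 0.1 TPM they were 4.95 ± 0.84 and 5.23 ± 1.00. The second quantification, with 1 TPM added, gave 2.88 ± 0.26 and 2.25 ± 0.85. In the first quantification, Ebi3 over Il12a, the chains of interleukin 35, gave 7.71 ± 0.33 (9.88 ± 1.14 with 0.1 TPM). Ebi3 over Il12b, the family's pair of beta chains, gave 4.78 ± 0.32. Both had the same sign-flip p and adjusted p.

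Il23a was the member whose mean level differed most between the quantifications. The second table gave 1.24, 2.83, 0.175 and 0.182 TPM, a mean 5.40 times that of the first table. Nearly all of it, 83.9% to 97.5%, was placed on Il23a-202, a retained-intron transcript of 3 exons to which the first table gave 0 TPM in all 4 libraries. The protein-coding transcript Il23a-201 had 0.0317, 0.335, 0.0282 and 0.0238 TPM in the second table and was low in both. Exon 1 of Il23a-202 (128297490 to 128298752) is 1263 bases long and reaches upstream of the start of Il23a-201 at 128298084. Of its 1694 stretches of 31 bases, 13 also occur in transcripts of 210 other genes. The share of those reads in the difference was not tested.

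**Figure D2:**
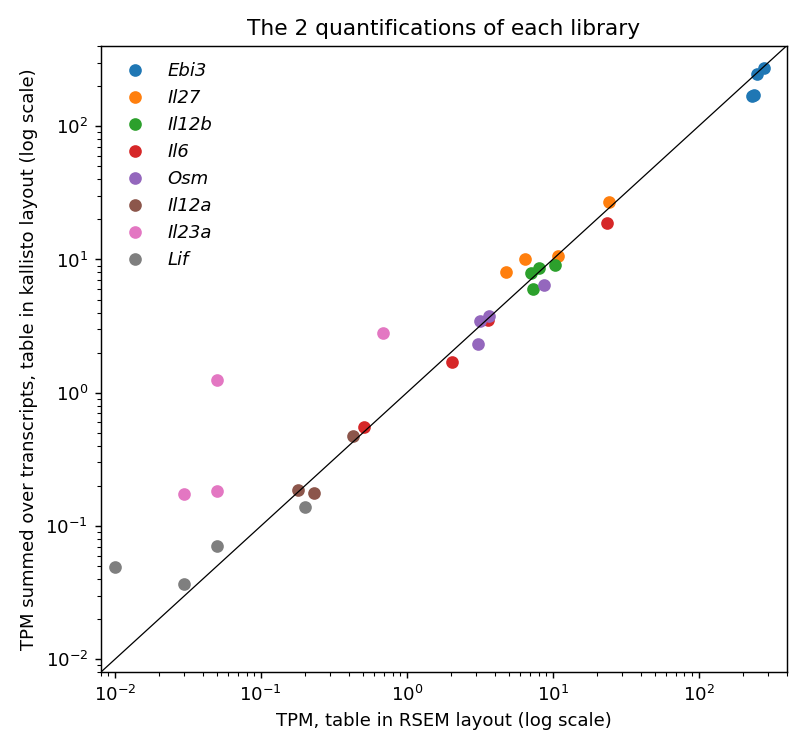
TPM of the 8 cytokine genes in the table in RSEM layout (x axis) against TPM summed over transcripts in the table in kallisto layout (y axis), both on log axes, 1 point per gene and library, with the line of equality and values of 0 left out. Il23a lies above the line in all 4 libraries (second over first mean 5.40), and the other 7 genes have ratios of means between 0.830 and 1.21.

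Il6, which encodes the acute-phase and fever cytokine interleukin 6, varied most among the 5 tested members. It lies on chromosome 5 (30013114 to 30019981, plus strand). Il6 measured 2.04, 23.6, 0.51 and 3.63 TPM (7.43 ± 10.8, SD, n = 4), from 30, 389, 17 and 123 counts. The exact Poisson 95% intervals ran from 12.8 to 15.7 CPM in replicate 2 and from 0.203 to 0.557 CPM in replicate 3. Replicate 2 stood 6.49 times above the next library, and without it the mean was 2.06 TPM. The second quantification gave 1.69, 18.9, 0.549 and 3.51 TPM, in the same order. The 5-exon transcript Il6-201 held 54.9% to 85.8% of Il6 TPM in the first table and 33.8% to 72.1% in the second, where another coding transcript of 4 exons was ahead of it in replicate 1.

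Osm encodes oncostatin M and Lif encodes leukemia inhibitory factor; these gp130 ligands are neighbours on chromosome 11, with 16530 bases between Osm (4236420 to 4241026) and Lif (4257557 to 4272514), both on the plus strand. Osm measured 3.07, 8.75, 3.20 and 3.69 TPM (4.68 ± 2.73, SD, n = 4), from 101, 316, 212 and 281 counts. Replicate 2 was 2.37 times the next library, and the other 3 lay between 3.07 and 3.69 TPM. Osm-201 held 91.9% to 95.4% of its TPM. Lif had 3, 13, 4 and 1 counts, or 0.05, 0.20, 0.03 and 0.01 TPM, and was again highest in replicate 2. Osm exceeded its neighbour Lif in 4 of 4 libraries, by a mean log2 ratio of 2.30 ± 0.49 (SD, n = 4; exact sign-flip permutation p = 0.13, adjusted 0.167; 4.76 with 0.1 TPM added).

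In the order of mean TPM, Ebi3 stood apart from all other members in every library. The neighbours Il27 and Il12b, Il12b and Il6, and Il6 and Osm overlapped in their values over libraries, and so did Il12a, Il23a and Lif. Replicate 2 was the highest library for 7 of the 8 genes in both quantifications. Of these 7, Il12a, Il23a and Lif rest on 0 to 14 counts per library in the first. Il12b in replicate 2 was only 1.05 times the next library in the second. For the 5 members with a mean of at least 1 TPM, replicate 2 was the highest for 4, beside 38.8% of all genes at that level. The ratio of replicate 2 to the mean of the other libraries was 11.4 for Il6, 3.30 for Il27, 2.64 for Osm, 1.39 for Il12b and 0.899 for Ebi3. The SD of log2 CPM over the libraries was 1.70 for Il6, 0.89 for Il27, 0.59 for Osm, 0.18 for Ebi3 and 0.16 for Il12b, where the median tested gene had 0.29. Of all tested genes, 99.9% had a smaller SD than Il6, 97.6% than Il27, 88.7% than Osm, 23.7% than Ebi3 and 18.8% than Il12b.

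Replicates 3 and 4 were compared with replicates 1 and 2, a split taken from the number of read files and not a condition of the study. Of the 8 members, 5 passed the filter on low counts, and edgeR's quasi-likelihood test called 0 of them lower and 0 higher at an adjusted p below 0.05, beside 3.72% and 2.08% of 11991 tested genes. At an unadjusted p below 0.05 there was 1 (Il27), where 28.5% of all tested genes passed. Il27 had a log2 fold change of -1.60 ± 0.37 (SE; edgeR adjusted p = 0.0629). DESeq2 called it lower (-1.60, adjusted p = 0.00222), beside 9.24% of genes called lower and 6.95% called higher by that tool. Without replicate 2 the edgeR value of Il27 was -1.07. With no filter on low counts edgeR called Il6 and Il27 lower, in a fit that called 6.16% of its 22006 genes lower and 5.51% higher.

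Il6 had a log2 fold change of -2.57 ± 1.18 (SE; edgeR adjusted p = 0.218), which became -0.10 without replicate 2. Osm had -0.75 ± 0.43 (adjusted p = 0.301 in edgeR), and its sign turned without replicate 2 (0.03). Il12b (-0.21 ± 0.21, edgeR adjusted p = 0.549) and Ebi3 (0.17 ± 0.18, edgeR adjusted p = 0.571) differed by about their SE or less. The median of the 5 was -0.75, beside -0.01 for all tested genes. Among the 5, both TPM values of replicates 3 and 4 lay below both of replicates 1 and 2 for Il27 and above them for Ebi3, as they did for 26.9% and 29.6% of tested genes. The split also separates libraries by depth and by mitochondrial share, and the part of these in the differences was not tested.

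**Figure D3:**
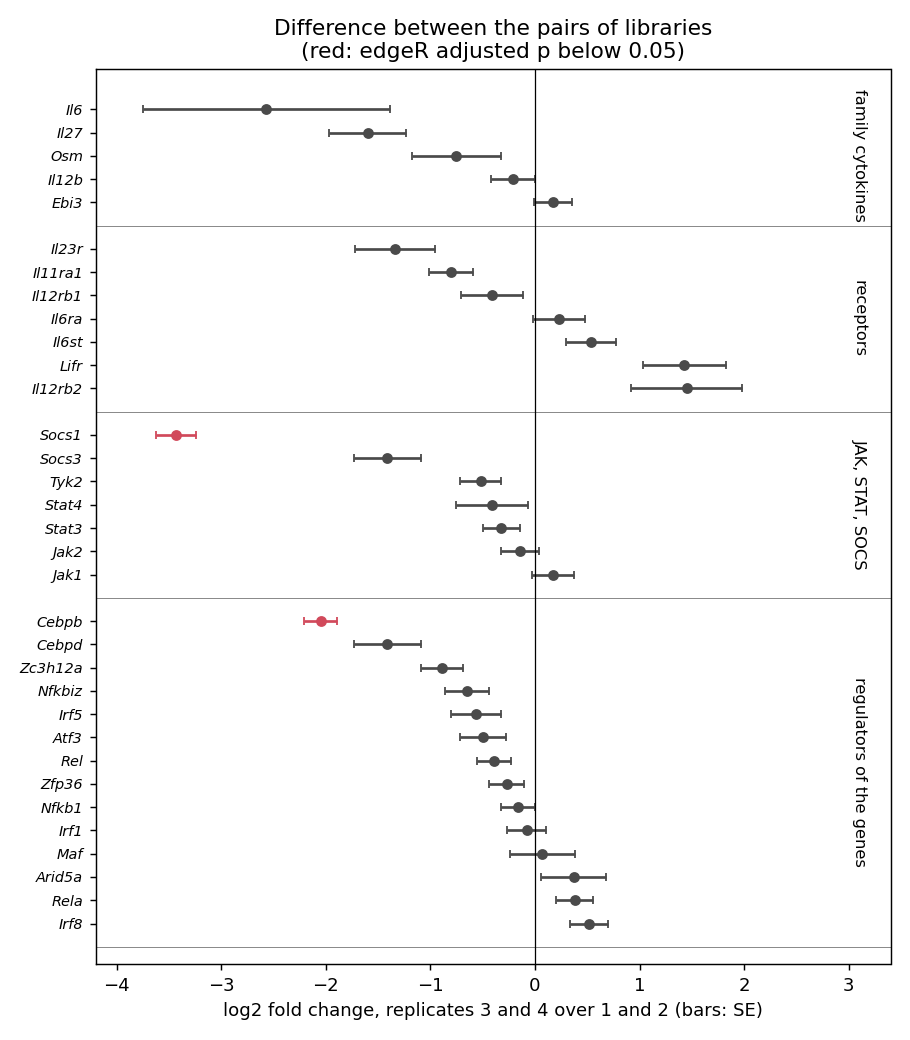
Log2 fold change of replicates 3 and 4 over replicates 1 and 2 (x axis; bars are SE) for the tested cytokine genes and receptors, 7 JAK, STAT and SOCS genes and the tested regulators of the cytokine genes (y axis), with edgeR adjusted p below 0.05 in red. None of the 5 cytokine genes is red, Il6 has the widest bar (SE 1.18), and Socs1 and Cebpb are the genes in red.

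Among 11 receptor genes, 6 reached 1 TPM in all 4 libraries. Il12rb1, the chain shared by the interleukin 12 and interleukin 23 receptors, led with 30.6, 64.3, 40.8 and 30.2 TPM. Il6st (gp130) followed with 16.0, 23.2, 23.3 and 36.4 TPM, then Il11ra1, the interleukin 11 receptor, with 17.8, 19.5, 12.9 and 14.0 TPM. Il6ra, the chain that binds interleukin 6, had 17.0, 11.8, 14.9 and 14.2 TPM. Il23r and Il12rb2, the private chains of the interleukin 23 and interleukin 12 receptors, had 13.6, 7.35, 4.52 and 3.94 TPM and 2.30, 8.11, 10.1 and 19.3 TPM. The receptor chains for interleukin 27 (Il27ra, at most 0.18 TPM), oncostatin M (Osmr, at most 0.07 TPM) and leukemia inhibitory factor (Lifr, at most 0.86 TPM) stayed under 1 TPM in all libraries.

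**Figure D4:**
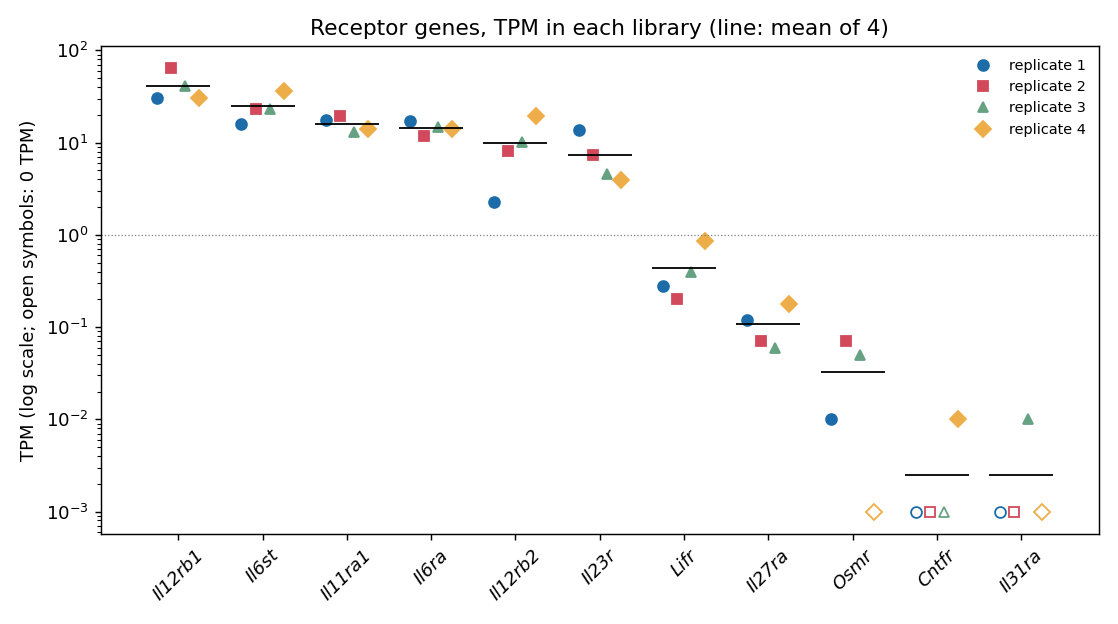
TPM of 11 receptor genes (x axis) in replicates 1 to 4 (symbols), on a log axis, with the mean of the 4 libraries as a line, a dotted line at 1 TPM and open symbols for 0 TPM. The 6 genes on the left are above 1 TPM in every library, and Lifr, Il27ra, Osmr, Cntfr and Il31ra are below it in every library.

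Set beside its receptor, Il6 was lower than Il6ra in 3 of 4 libraries and higher in replicate 2, with a mean log2 ratio of -1.68 ± 1.88 (SD, n = 4; exact sign-flip permutation p = 0.25, adjusted 0.25). Il6st over Il6ra gave 0.69 ± 0.58 (SD, n = 4), positive in 3 of 4 libraries (exact sign-flip permutation p = 0.25, adjusted 0.25). Of the receptors, edgeR tested 7 and called 0 lower and 0 higher between the library pairs, beside 3.72% and 2.08% of all tested genes. At an unadjusted p below 0.05 there were 4, beside 28.5% of all tested genes. DESeq2 called 2 lower and 2 higher, beside 9.24% and 6.95% of all genes it tested. Of 7 other ligands of the family, none was tested: Ctf1 and Il31 had 0 counts in all 4 libraries, and the highest means were 0.263 TPM for Cntf, 0.0600 for Clcf1 and 0.0100 for Ctf2.

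The signalling genes downstream were all detected. Of 8 JAK, STAT and SOCS genes, each reached 1 TPM in all 4 libraries, with Stat3 at 92.2 ± 15.4 and Jak1 at 89.1 ± 17.0 TPM (SD, n = 4). Stat4 passed narrowly, at 1.3, 2.7, 1.03 and 1.18 TPM, and had 0.744 TPM in replicate 1 in the second quantification. Socs1, a feedback inhibitor of JAK kinases, measured 13.8, 17.5, 1.46 and 1.37 TPM (log2 fold change -3.43 ± 0.19 (SE), edgeR adjusted p = 0.0144). It was the single call in that list (1 lower, 0 higher), beside 3.72% lower and 2.08% higher of all tested genes. Socs3, the inhibitor that binds gp130, had 29.1, 64.2, 15.0 and 18.9 TPM and did not pass (-1.41 ± 0.32 (SE), edgeR adjusted p = 0.0595). Like 4 of the 5 abundant members, Socs3 was highest in replicate 2. So were 5 of the 8 genes in this list, Socs3 among them, and 38.8% of all genes with a mean of at least 1 TPM.

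Of 14 genes known to regulate family members, 1 was called lower and 0 higher, beside 3.72% and 2.08% of all tested genes. Cebpb, a C/EBP factor known for binding the Il6 promoter, had 80.3, 93.7, 22.5 and 19.2 TPM (log2 fold change -2.05 ± 0.16 (SE), edgeR adjusted p = 0.0166). Atf3 (339 ± 98.6), Irf1 (227 ± 51.2) and Irf5 (186 ± 31.1 TPM, SD, n = 4) were the most abundant. The TPM of Atf3 were higher in replicates 3 and 4 while its counts gave -0.50 ± 0.22 (SE; edgeR adjusted p = 0.194), so its scales differ in sign. The same held for Irf1 and Stat3, 3 of the 36 tested list genes in all, and for 0 of the 5 tested members. Of 8 genes known as STAT3 targets, edgeR called 2 lower and 0 higher, beside 3.72% and 2.08% of all tested genes. Junb had 157, 170, 49.4 and 50.2 TPM (-1.71 ± 0.15 (SE), edgeR adjusted p = 0.0187), and the kinase gene Pim1 had 82.7, 114, 71.2 and 63.3 TPM (-0.94 ± 0.17 (SE), edgeR adjusted p = 0.0423). Il4ra was the most abundant of these at 134 ± 18.0 TPM (SD, n = 4). Over all tested genes the median log2 fold change was -0.01, and edgeR called 3.72% lower and 2.08% higher. Of the 47 genes of all lists without the members, 36 were tested. Of these 36, edgeR called 4 lower and 0 higher, and the median log2 fold change of the 36 was -0.40. DESeq2 on all libraries called 10 of the list genes lower and 2 higher, beside 9.24% and 6.95% of all genes it tested. The number edgeR called changed when 1 replicate was left out. Those fits have a single library on 1 side, and the share of all genes called in them was not computed.

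The genes whose pattern over the 4 libraries was most like that of a member were found among 11434 genes, by the root-mean-square difference of centred log2(TPM + 1). For Ebi3 they were Ccdc124 (0.013; 34.9, 33.7, 42.1 and 37.1 TPM) and Phf11b (0.016; 645, 642, 776 and 688 TPM), with 494 genes within 0.1. For Il12b they were Josd1 (0.005) and Mfsd4a (0.009), with 584 genes within 0.1. Il27 had fewer such genes: Fabp3-ps1 (0.042; 2.79, 6.52, 1.35 and 0.77 TPM) and Mir22hg (0.084; 15.3, 33.7, 10.4 and 6.57 TPM) were the 2 within 0.1. The number of genes within 0.1 depends on how far a member spreads over the libraries. Of tested genes, 97.6% had a smaller SD of log2 CPM than Il27, 23.7% than Ebi3 and 18.8% than Il12b. With 4 libraries these are descriptions of likeness and carry no test.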

How the data were processed

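Each library has 3 deposited tables. In 2 of them, 1 of genes and 1 of transcripts, the authors gave expected counts and TPM under RSEM's column names. The third, of transcripts, holds the authors' estimated counts and TPM under kallisto's column names. The deposited notes name mm10 and GENCODE M21 and say that the third table was made from the read files. The programs, their versions and the strand setting are not given in the sources. Deposited TPM are scaled within a library, and deposited expected counts are not normalized, per the file headers. Levels are gene TPM of the first table unless the second quantification is named; its values were summed per gene (86 genes had no row).

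The members, gene lists, pairs, the split of libraries and the tests were chosen with earlier results of these data known. Rows for tRNAs and spike-ins (26345 rows, 0.0419% to 0.128% of counts) were left out. Expected counts were rounded and fitted in R 4.3.3 with edgeR 4.0.16 (a filterByExpr minimum count of 10 that ignored the split, TMM, quasi-likelihood test, Benjamini-Hochberg adjustment over 11991 genes, threshold 0.05). DESeq2 1.42.0 was an alternative, beside other size factors (RLE), no filter, second-table counts, GC and length offsets, and leaving out each replicate. SE is the size of the log2 fold change divided by the root of the F statistic. For pairs, the exact sign-flip permutation test used all 16 sign assignments. In simulated counts for this split, edgeR recovered 48.0% of changes of log2 1 and 94.0% of log2 2 among 11991 genes, each share over 100 changed genes. The SD of log2 CPM was 1.70 for Il6, 0.89 for Il27 and 0.59 for Osm, beside 0.29 for the median tested gene. Recovery for these 3 members at their own spread was not tested.

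Named were the 8 members and, in each list, every gene edgeR called, the 3 of highest mean TPM and those at 0 counts; for the 3 members of highest mean TPM, the 2 most like genes. Some genes under this rule are not reported here. Il23r, Il12rb2, Il27ra, Osmr, Lifr, Stat4, Socs3, Gm16712 and Apobr were named after their values were seen. Tables used pandas 2.3.3 and scipy 1.17.1 in Python 3.11.15, with numpy 2.4.6, and plots matplotlib 3.10.9.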

Additional observations from a re-analysis of the deposited data

Results flagged for a closer look

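For 3 of the 8 genes, in the first table, 1 library stood apart from the other 3 by more than Dixon's 95% critical value for 4 samples. In each case it was replicate 2, the highest. The gap to the next library was 0.865 of the range for Il6 (23.6 TPM against at most 3.63 TPM elsewhere), 0.970 for Il23a (0.69 against at most 0.05 TPM, from 14 against at most 2 counts) and 0.891 for Osm (8.75 against at most 3.69 TPM). In the second quantification the gap was 0.839 for Il6, which still passes, and 0.597 for Il23a and 0.654 for Osm, which do not. There Il27 passed, at 0.858 (0.690 in the first table), again with replicate 2 the highest. Chance passes this limit in about 1 in 20 groups of normally distributed values, while TPM entered here without a log. The share of all genes past the limit was not computed, so the count says nothing particular to these genes. The 3 genes were also measured in the same libraries.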

How the results depend on the processing

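Of 183 values recomputed under an alternative, 165 were judged unchanged. They kept their direction and side of the threshold, moved by less than the replicate spread or, for counts of genes, stayed equal or close. An example of a close count is 5 members against 4 when the limit of 1 TPM was lowered to 0.5 TPM. Of the pair ratios, 48 of 48 kept their sign. The members called lower, 0 in the fit reported, numbered 1 with DESeq2 (Il27) and 2 with no filter on low counts. The latter were Il6 (-2.50, edgeR adjusted p = 2.23e-10) and Il27 (-1.54, edgeR adjusted p = 3.41e-05). That fit called 6.16% of all genes lower, against 3.72% in the fit reported. The list genes called lower, 4 in the fit reported, numbered 10 with DESeq2, 12 with no filter and 0 to 6 when 1 replicate was left out; those called higher numbered 2 with DESeq2, 2 with no filter and 0 to 1 when 1 replicate was left out (1 without replicate 2). Over all genes tested, DESeq2 called 9.24% lower and 6.95% higher, and the fit with no filter called 6.16% lower and 5.51% higher. The log2 fold change of Osm ran from -1.23 to 0.03 when 1 replicate was left out. The second quantification moved the mean of Il23a to 1.11 TPM, that of Ebi3 to 216 TPM, and the mean share of the leading transcript to 54.5% for Il6, 10.9% for Il23a and 91.9% for Osm. With GC and length offsets Ebi3 had 0.59 (edgeR adjusted p = 0.110) and Il27 -1.18. The cause of these changes was not tested. Il6 did not pass the filter without replicate 4, so that value was not run. Il12a, Il23a and Lif, at 0 to 14 counts, did not pass the filter for the comparison of library pairs, and their ratios and ranges rest on these few counts. No paired analysis was possible because the series has 1 group.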
